A study of Homo sapiens with 12 samples.

Results

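The early enzymes of cholesterol synthesis were described as the 9 genes HMGCS1, MVK, PMVK, MVD, IDI1, FDPS, FDFT1, SQLE and LSS, taken by name from a table of 34687 gene rows and kept in pathway order. Each had 1 row. HCT116, a human colon cancer line, and PANC1, a human pancreatic ductal carcinoma line, were treated for 12 or 96 h with 0.05% DMSO, the solvent control, with 10 uM ICG-001 or with 10 uM C646. The compound ICG-001 keeps the co-activator CBP from binding β-catenin, and C646 inhibits the histone acetyltransferase activity of CBP and of its relative p300. The 12 combinations of line, treatment and time were the groups, and each had 1 column of Illumina HumanHT-12 v4 signal intensity, the authors' mean of 2 arrays (3 for PANC1 with ICG-001 at 12 h). With 1 column a group no spread between replicates could be computed, so no difference was tested and all differences are sizes between a pair of columns. Both models are single established lines grown in serum, which supplies cholesterol from outside the cell. Cells for the 96 h columns were started at a lower density than those for 12 h and were passaged on the way, so time and density cannot be told apart.

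Cholesterol is built from acetyl-CoA. HMGCS1 forms HMG-CoA in the cytosol, HMG-CoA is reduced to mevalonate, and MVK, PMVK and MVD turn mevalonate by phosphorylation and decarboxylation into isopentenyl diphosphate, the unit from which all isoprenoids are made. IDI1 converts this unit to its reactive isomer and FDPS joins the units to farnesyl diphosphate, where the route splits towards prenylated proteins, dolichol and ubiquinone on one side and sterols on the other. FDFT1 (squalene synthase) commits farnesyl diphosphate to sterols, SQLE adds oxygen to squalene and LSS closes the rings to give lanosterol. The genes are known targets of SREBP-2 (SREBF2), a membrane-bound transcription factor that SCAP carries to the Golgi for cleavage and that INSIG proteins hold back when sterols are plentiful. SREBP proteins bind sterol regulatory elements and need the neighbouring factors NF-Y and SP1 at many of these promoters.

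Promoter sequences are shown for IDI1, HMGCS1, FDPS, MVK and PMVK. RefSeq windows (GRCh38.p14, 250 bases before to 50 after a transcription start) were matched by symbol for 7 of the 9 genes, giving 10 windows, since HMGCS1 had 2 starts and IDI1 had 3. FDFT1 and SQLE were not matched. Each sequence is printed 5′ to 3′ on the strand of the gene, and capitals mark the NF-Y box CCAAT on either strand and the sterol element spellings TCACNCCA and CACNCCAC. The IDI1 window at chr10:1048837-1049136 (minus strand) belongs to the gene with the lowest ratios, and that of HMGCS1 at chr5:43313363-43313662 (minus strand) to the first enzyme.
IDI1: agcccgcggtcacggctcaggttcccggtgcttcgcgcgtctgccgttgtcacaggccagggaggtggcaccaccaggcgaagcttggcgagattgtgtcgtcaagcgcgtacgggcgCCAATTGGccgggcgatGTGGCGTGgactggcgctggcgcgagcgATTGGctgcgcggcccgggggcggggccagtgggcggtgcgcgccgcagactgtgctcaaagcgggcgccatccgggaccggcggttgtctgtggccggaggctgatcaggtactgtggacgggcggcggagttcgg
HMGCS1: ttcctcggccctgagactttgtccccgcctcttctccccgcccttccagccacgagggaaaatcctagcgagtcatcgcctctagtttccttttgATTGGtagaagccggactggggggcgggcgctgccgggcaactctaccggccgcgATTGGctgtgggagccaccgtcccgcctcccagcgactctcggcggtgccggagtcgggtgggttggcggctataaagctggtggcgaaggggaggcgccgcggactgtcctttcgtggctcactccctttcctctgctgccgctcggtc
FDPS (chr1:155308616-155308915, plus strand) stands at the branch point, MVK (chr12:109573544-109573843, plus strand) held the most NF-Y boxes of the 10 windows, and PMVK (chr1:154936670-154936969, minus strand) held none.
FDPS: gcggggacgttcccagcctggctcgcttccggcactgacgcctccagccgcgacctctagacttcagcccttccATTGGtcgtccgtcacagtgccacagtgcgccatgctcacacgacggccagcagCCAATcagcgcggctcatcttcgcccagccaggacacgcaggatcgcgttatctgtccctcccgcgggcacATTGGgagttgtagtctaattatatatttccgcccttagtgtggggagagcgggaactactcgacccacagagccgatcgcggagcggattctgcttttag
MVK: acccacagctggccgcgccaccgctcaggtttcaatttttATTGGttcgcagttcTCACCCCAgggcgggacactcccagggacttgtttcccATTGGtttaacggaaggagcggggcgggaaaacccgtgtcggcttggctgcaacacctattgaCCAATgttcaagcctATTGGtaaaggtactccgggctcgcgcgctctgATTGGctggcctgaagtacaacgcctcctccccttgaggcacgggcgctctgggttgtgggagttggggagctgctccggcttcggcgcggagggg
PMVK: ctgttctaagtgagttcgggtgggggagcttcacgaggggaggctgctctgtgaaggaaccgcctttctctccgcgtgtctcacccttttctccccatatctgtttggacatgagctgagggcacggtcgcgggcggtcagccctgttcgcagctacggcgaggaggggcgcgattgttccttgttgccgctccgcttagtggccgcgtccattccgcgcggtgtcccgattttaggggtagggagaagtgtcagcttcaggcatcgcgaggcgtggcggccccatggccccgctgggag

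CCAAT was found in 7 of the 10 windows, against 34.6% of all 35114 RefSeq windows. At least 1 window of 6 of the 7 genes held it, and that of PMVK did not. HMGCS1 and IDI1 had several windows in which to match. The windows printed for them hold CCAAT, while another start of each holds none. Whether the box goes with the signals was not tested. MVK had 5 matches, the printed IDI1 window 3 (2 of which overlap each other in its CCAATTGG), MVD 3, FDPS 3, the printed HMGCS1 window 2 and LSS 1. The SP1 box GGGCGG was found on either strand in all 10 windows, against 45.0% of all windows. TCACNCCA was found in MVK alone, at positions -195 to -188 from the start, and in 3.95% of all windows. CACNCCAC was found in IDI1 alone, on the opposite strand at positions -115 to -108, and in 5.87% of all windows. The last 2 spellings overlap, since one is the other shifted by a base. These matches describe letters in a window of fixed length. No binding was measured here.

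**Figure D1:**
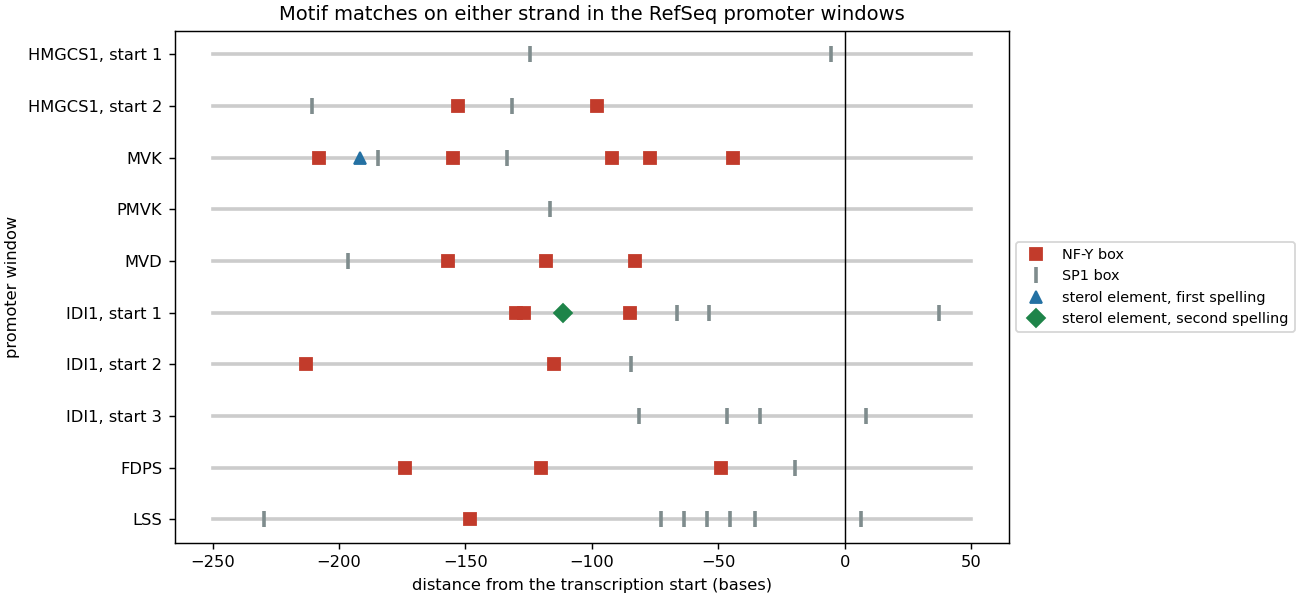
Positions of motif matches in the 10 promoter windows, as distance in bases from the transcription start (0, vertical line); squares are CCAAT, bars GGGCGG, the triangle TCACNCCA and the diamond CACNCCAC. The PMVK window and 1 window each of HMGCS1 and IDI1 hold no square, and 7 windows hold at least 1.

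A detection limit was set for each column from the peak of its log2 signal and the SD of the values below that peak, so that 1% of normally distributed background values would exceed it, and it fell at 144.0 to 144.8 signal units in HCT116 and 136.1 to 138.6 in PANC1. All 9 genes were above it in all 12 columns. In each single column, a looser criterion, 44.0% to 46.4% of all rows were above it. MVK came closest, at 1.06 times the limit in its dimmest column. The background was left in the deposited values, so ratios of the dimmer genes MVK, MVD and LSS, and of PMVK in HCT116, are compressed. A pair of columns was compared over genes that exceeded the limit in 1 column or both, and a gene was called lower or higher at 1.5-fold, a log2 ratio of 0.58 in either direction. Among rows under the limit, which carry background, the SD of the log2 ratio was 0.062 to 0.074 in the 14 comparisons, and the median of all genes that entered lay between -0.01 and 0.01. Marker genes of the lines were checked in the DMSO columns at 12 h. Of 6 colon epithelial markers 2 were above the limit in HCT116 (CDX2 at 435 and EPCAM at 7630), while CDX1, CDH17, VIL1 and LGALS4 were under it; in PANC1 3 were above it (CDX2, CDH17 and EPCAM). Of 6 markers of ductal and mesenchymal-like carcinoma 5 were above it in PANC1, with KRT19 at 11325 and VIM at 16339 and FN1 under the limit, and 3 in HCT116.

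With ICG-001 the early enzymes were lower in both lines, PMVK apart, and more of them were past 1.5-fold in HCT116 than in PANC1 at 12 h. In HCT116, 7 of 9 were at least 1.5-fold lower at 12 h and 7 of 9 at 96 h, beside 4.25% and 5.23% of all genes. In PANC1, 1 of 9 was at 12 h and 6 of 9 at 96 h, beside 0.343% and 3.63% of all genes. In PANC1 at 12 h fewer of all genes were lower too, and the reason was not tested. That ICG-001 column was also the only mean of 3 arrays. No enzyme was 1.5-fold higher than DMSO in any column, with either drug. Only 1.93% to 5.25% of all genes were higher in these comparisons, so 0 of 9 is near the share of all genes. IDI1 had the lowest ratio of the 9 genes in all 4 comparisons of ICG-001 with DMSO. In RNA from whole cultures, fewer cells that express a gene and less RNA per cell cannot be told apart. With C646 only LSS in HCT116 at 96 h and IDI1 in PANC1 at 12 h were past 1.5-fold. Against the DMSO column of the other time both calls were lost, at log2 ratios of -0.52 and -0.58, while LSS in HCT116 at 12 h passed. After normexp background correction LSS was past 1.5-fold with C646 in HCT116 at both times and SQLE at 96 h, and MVK, SQLE and LSS joined IDI1 in PANC1 at 12 h. In each line and at each time the ICG-001 and C646 ratios were taken against the same DMSO column.

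The plot of signals by column shows these levels gene by gene. In HCT116 both ICG-001 columns lay below the 4 other columns for 8 of the 9 genes, all but PMVK. Of the 18712 genes that exceeded the limit in any HCT116 column, 11.3% did so. In PANC1 the same held for 6 of 9 (HMGCS1, PMVK, MVD, IDI1, FDPS and FDFT1), against 8.65% of 18990 genes.

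**Figure D2:**
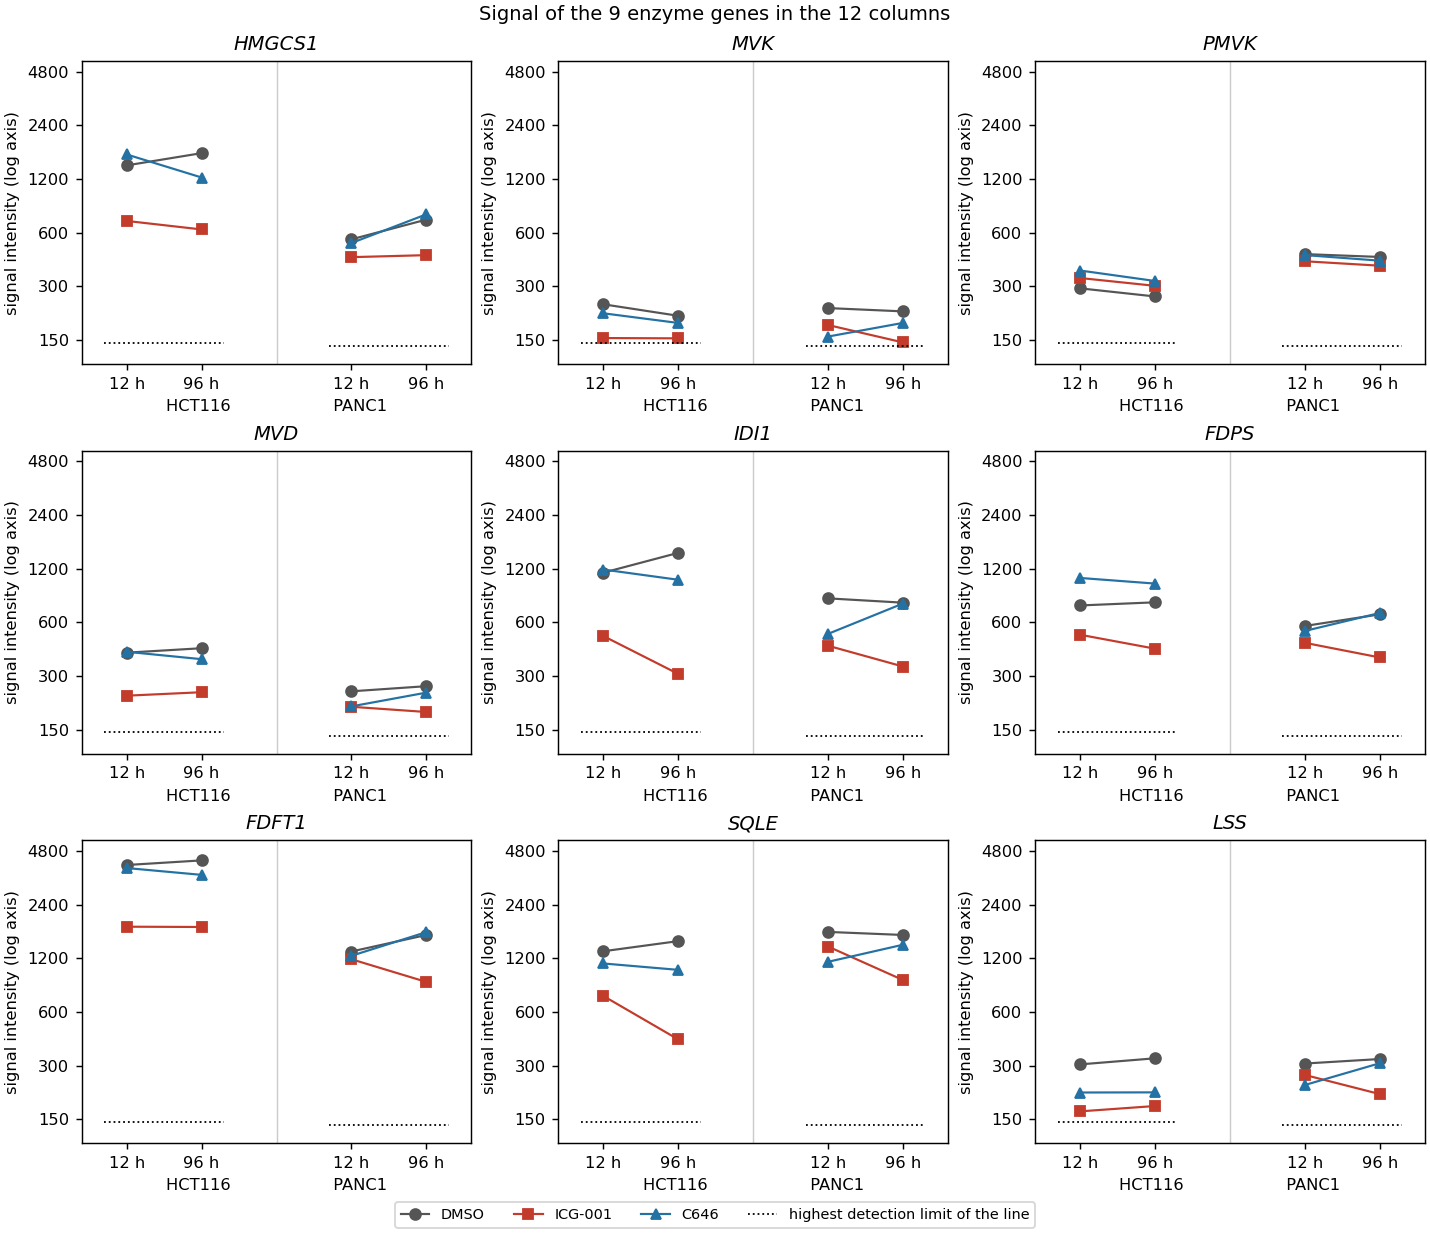
Signal intensity on a log axis for each enzyme gene at 12 and 96 h in HCT116 and PANC1; each point is 1 column, the mean of 2 or 3 arrays, and the dotted lines are the highest detection limit of a line. The ICG-001 squares lie under the DMSO circles in every panel but that of PMVK, where those of HCT116 lie above.

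HMGCS1, the synthase that opens the pathway, read 1431 at 12 h and 1676 at 96 h with DMSO in HCT116, 699 and 626 under ICG-001, and 1648 and 1224 under C646. The ICG-001 columns were the lowest and the others did not reach down to them. Against DMSO the signal with ICG-001 was 2.05-fold lower at 12 h and 2.68-fold lower at 96 h. In PANC1 the HMGCS1 signal was 551 and 711 with DMSO, 438 and 449 under ICG-001, then 525 and 761 under C646. Here too both ICG-001 columns were the lowest, by a smaller step of 1.26-fold at 12 h and 1.58-fold at 96 h against DMSO. The DMSO column itself was 1.29-fold higher at 96 h than at 12 h.

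MVK, which adds the first phosphate to mevalonate, was dim throughout. In HCT116 MVK read 238 and 205 with DMSO, 154 and 153 under ICG-001, then 212 and 187 under C646, in the order 12 and 96 h. Only the 12 h step with ICG-001 passed 1.5-fold, at 1.55-fold lower. That call was lost against the DMSO column of 96 h (log2 ratio -0.41 in place of -0.63), and after normexp background correction the log2 ratios were -1.29 at 12 h and -0.91 at 96 h, both past 1.5-fold. In PANC1 MVK read 227 and 217 with DMSO, 182 and 146 under ICG-001, then 157 and 187 under C646. The ICG-001 and C646 columns overlapped, and the ICG-001 column at 96 h was 1.49-fold under DMSO.

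PMVK, the next kinase, stood apart from the other 8 genes. In HCT116 PMVK read 293 and 264 with DMSO, 334 and 302 under ICG-001, then 368 and 322 under C646. The drug columns of HCT116 were above the DMSO column of their time with both drugs, by log2 ratios of 0.19 to 0.33. In PANC1 the 6 values ran from 392 with ICG-001 at 96 h to 455 with DMSO at 12 h, and all 4 drug columns were below DMSO by log2 ratios of -0.16 to -0.02. None of these steps reached 1.5-fold. In HCT116 PMVK lay at 1.82 to 2.55 times the detection limit, where background compresses ratios.

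MVD, the decarboxylase that yields isopentenyl diphosphate, read 405 and 429 with DMSO in HCT116, 233 and 243 under ICG-001, then 410.1 and 373 under C646. Only the ICG-001 columns were low, by 1.74-fold at 12 h and 1.76-fold at 96 h. In PANC1 MVD read 246 and 263 with DMSO, 202 and 189 under ICG-001, then 203 and 242 under C646. At 12 h the signals with the drugs were nearly the same there, and neither was 1.5-fold under DMSO.

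IDI1, the isomerase, had the widest range. In HCT116 its signal was 1139 at 12 h and 1471 at 96 h with DMSO, 503 and 308 under ICG-001, then 1186 and 1039 under C646. The ICG-001 signal was 2.27-fold under DMSO at 12 h and 4.77-fold at 96 h, which ranked it 35 from the lowest among 16663 genes and 3 from the lowest among 16717. In PANC1 IDI1 read 817 and 773 with DMSO, 443 and 339 under ICG-001, then 517 and 765 under C646. With ICG-001 it was 1.84-fold lower at 12 h, where only 3 of 16886 genes had a lower ratio, and 2.28-fold lower at 96 h. With C646 it was 1.58-fold lower at 12 h and within 1.01-fold of DMSO at 96 h.

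FDPS, the farnesyl diphosphate synthase at the branch point, lay below DMSO with ICG-001 and above it with C646 in HCT116, at both times. Its signal was 746 and 777 with DMSO, 511 and 427 under ICG-001, then 1064 and 989 under C646. ICG-001 columns were 1.46-fold and 1.82-fold below DMSO, and C646 columns 1.43-fold and 1.27-fold above it. In PANC1 FDPS read 572 and 665 with DMSO, 461 and 381 under ICG-001, then 536 and 677 under C646, and the ICG-001 column at 96 h was 1.74-fold lower. FDPS has processed copies elsewhere in the genome, and whether the probe reads them too is not given in the sources used here.

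FDFT1, which commits the pathway to sterols, read 3997 and 4242 with DMSO in HCT116, 1802 and 1796 under ICG-001, then 3843 and 3519 under C646. Its ICG-001 columns stood 2.22-fold and 2.36-fold under DMSO, with nearly the same level at both times. In PANC1 FDFT1 read 1308 and 1619.9 with DMSO, 1184 and 884 under ICG-001, then 1238 and 1680.5 under C646. There the difference was seen at 96 h, 1.83-fold, and at 12 h it was 1.11-fold.

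SQLE, the squalene epoxidase, read 1313 and 1497 with DMSO in HCT116, 737 and 421 under ICG-001, then 1121 and 1032 under C646. With ICG-001 SQLE was 1.78-fold lower than DMSO at 12 h and 3.56-fold lower at 96 h, where it ranked 11 from the lowest. In PANC1 SQLE read 1685 and 1620.0 with DMSO, 1395 and 905 under ICG-001, then 1146 and 1428 under C646. At 12 h the C646 column was the lower of the drug columns, and at 96 h the ICG-001 column was, 1.79-fold under DMSO.

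LSS, the cyclase that makes lanosterol, was lower than DMSO in every drug column. In HCT116 LSS read 305 and 329.6 with DMSO, 166 and 178 under ICG-001, then 212 at both times with C646. It was 1.83-fold and 1.85-fold lower with ICG-001 (after normexp the log2 ratios were -1.57 and -1.49 in place of -0.88 and -0.89), and with C646 1.44-fold lower at 12 h and 1.55-fold lower at 96 h. In PANC1 LSS read 308 and 327 with DMSO, 266 and 208 under ICG-001, then 233 and 309 under C646. Only the ICG-001 column at 96 h was past 1.5-fold, 1.57-fold lower.

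To place these steps among all genes, the share of all genes past 1.5-fold was counted in each comparison. In HCT116 with ICG-001 at 12 h, 4.25% of 16663 genes were lower and 4.93% higher, beside 7 and 0 of the 9 enzymes, whose median log2 ratio was -0.83. The 7 were HMGCS1, MVK, MVD, IDI1, FDFT1, SQLE and LSS. At 96 h 5.23% of 16717 genes were lower and 5.25% higher, beside 7 and 0 enzymes with a median of -0.89. FDPS had replaced MVK among the 7. In PANC1 at 12 h 0.343% of 16886 genes were lower and 2.23% higher with ICG-001, beside 1 enzyme lower, IDI1, and a median of -0.29. All 9 enzymes lay below DMSO there, by log2 ratios between -0.88 and -0.13, beside 50.2% of all genes. At 96 h 3.63% of 16986 genes were lower and 3.93% higher, beside 6 enzymes lower (HMGCS1, IDI1, FDPS, FDFT1, SQLE and LSS) and a median of -0.66. MVK, 1.49-fold lower, fell just short of the threshold, and MVD was at a log2 ratio of -0.48. Set against the DMSO column of 12 h instead, HMGCS1 (-0.29), FDFT1 (-0.57) and LSS (-0.57) with ICG-001 at 96 h were not past 1.5-fold. MVK was past it in that setting.

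With C646 at most 1 of the 9 enzymes was past 1.5-fold in any comparison with DMSO. In HCT116 at 12 h 0 of 9 enzymes were past 1.5-fold, beside 1.57% of 16584 genes lower and 2.66% higher. The median log2 ratio was 0.02, with 5 enzymes above DMSO, and 51.2% of all genes were below DMSO. At 96 h 1 enzyme, LSS, was lower, beside 1.24% of 16567 genes lower and 1.93% higher. The median there was -0.27, with SQLE (-0.54), IDI1 (-0.50) and HMGCS1 (-0.45) next to LSS and FDPS (0.35) and PMVK (0.29) above DMSO. In PANC1 at 12 h IDI1 alone was lower, beside 2.75% of 17150 genes lower and 4.08% higher. Its 9 enzymes were all below DMSO, from -0.66 to -0.02, beside 50.6% of all genes, and their median was -0.28. PMVK (-0.02) and HMGCS1 (-0.07) lay within the background SD of 0.073. At 96 h none was past 1.5-fold, beside 1.21% of 16762 genes lower and 2.87% higher, and every enzyme was within log2 ratios of -0.21 and 0.10.

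**Figure D3:**
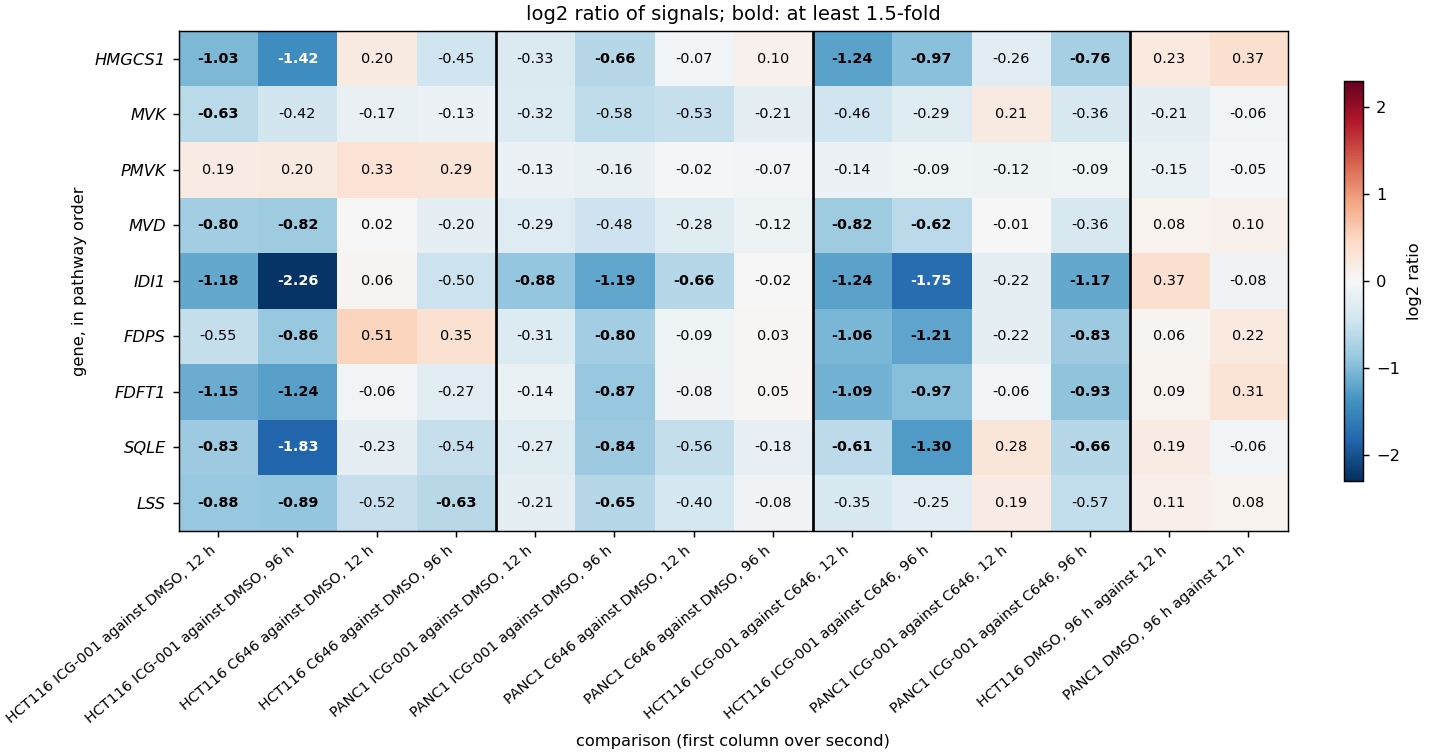
Log2 ratio of signals for the 9 enzymes (rows, pathway order) in 14 comparisons (columns); blue is lower and red higher in the first group named, and bold values are at least 1.5-fold. The dark blue cells are those of ICG-001 in HCT116 at 96 h, where IDI1 is at -2.26 and SQLE at -1.83.

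ICG-001 and C646, given at the same dose for the same time, were then compared directly, without the DMSO columns. In HCT116 at 12 h 6 of 9 enzymes were at least 1.5-fold lower with ICG-001 than with C646 (HMGCS1, MVD, IDI1, FDPS, FDFT1 and SQLE), beside 2.88% of 16725 genes lower and 3.52% higher. The widest steps were those of IDI1 and HMGCS1, 2.36-fold each, which ranked 14 and 15 from the lowest. At 96 h the same 6 enzymes were lower, beside 3.34% of 16816 genes lower and 3.29% higher. IDI1 was 3.37-fold, SQLE 2.45-fold and FDPS 2.32-fold lower with ICG-001. LSS, which was low with both drugs, differed between them by 1.28-fold at 12 h and 1.19-fold at 96 h.

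In PANC1 at 12 h no enzyme differed between the drugs by 1.5-fold, beside 0.95% of 17255 genes lower and 1.61% higher with ICG-001. The log2 ratios ran from -0.26 (HMGCS1) to 0.28 (SQLE). At 96 h 5 enzymes were lower with ICG-001 (HMGCS1, IDI1, FDPS, FDFT1 and SQLE), beside 3.55% of 17298 genes lower and 3.39% higher, and the median was -0.66. With no replicate values the step between 12 and 96 h was not tested.

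**Figure D4:**
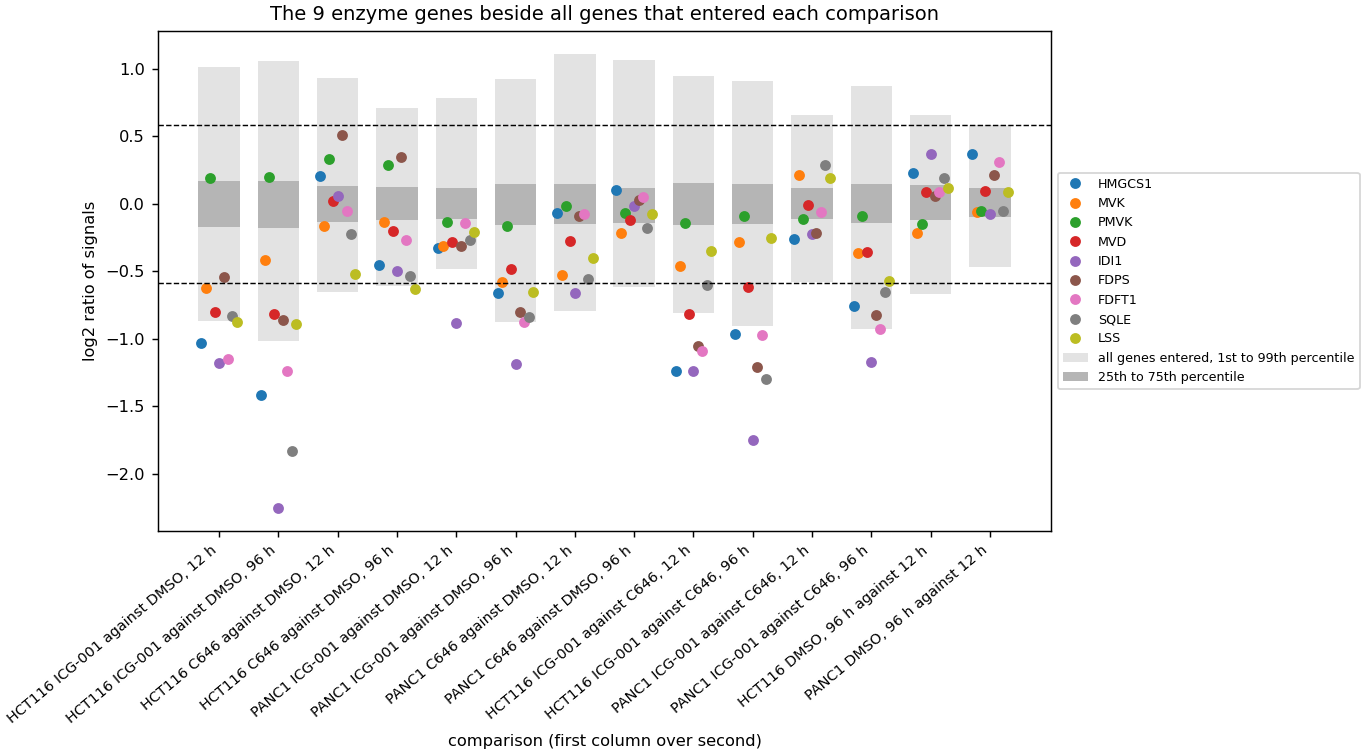
Log2 ratio of each enzyme (coloured points) in the 14 comparisons, over the 1st to 99th (light bars) and 25th to 75th (dark bars) percentile of all genes that entered; dashed lines are 1.5-fold. With ICG-001 against DMSO the IDI1 point lies under the light bar in both lines and at both times, and in the DMSO comparisons on the right all points lie within 1.5-fold.

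Columns without drug gave the size of differences that time, density and array error make together. From 12 to 96 h with DMSO none of the 9 enzymes reached 1.5-fold in either line. In HCT116 1.59% of 16303 genes were lower and 1.59% higher, and the enzymes lay between -0.21 (MVK) and 0.37 (IDI1). In PANC1 0.337% of 16327 genes were lower and 0.992% higher, and the enzymes lay between -0.08 (IDI1) and 0.37 (HMGCS1). Within ICG-001 the later column was lower for SQLE in both lines, by 1.75-fold in HCT116 and 1.54-fold in PANC1, and for IDI1 by 1.63-fold and 1.31-fold. MVK and FDFT1 in HCT116 were level between the times, with log2 ratios of -0.01 each. Within C646 in PANC1 the later column was higher for 8 of the 9 enzymes, IDI1 by 1.48-fold and HMGCS1 by 1.45-fold, and PMVK was 1.07-fold lower. Shares of all genes were not counted for these steps within a drug.

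The enzymes that follow lanosterol were taken as a list of 10 genes. In HCT116 with ICG-001 5 of the 10 were at least 1.5-fold lower at 12 h and 3 at 96 h, beside 4.25% and 5.23% of all genes, with medians of -0.59 and -0.32. In PANC1 0 were lower at 12 h and 6 at 96 h, beside 0.343% and 3.63% of all genes, with medians of -0.16 and -0.82. HSD17B7 in PANC1 at 12 h was the single gene past 1.5-fold higher, where 2.23% of all genes were higher. DHCR7, the reductase of the last step to cholesterol, was at -1.58 in HCT116 and -1.68 in PANC1 at 96 h. MSMO1 (array name SC4MOL), a sterol oxidase, was at -1.52 and -1.35 there. CYP51A1, the first enzyme after lanosterol, had log2 ratios in HCT116 of 0.25 at 12 h and -0.76 at 96 h, and in PANC1 of -0.01 and -0.94. HSD17B7 went the other way, with log2 ratios of 0.45 to 0.64 with ICG-001 and of 0.64 to 1.45 with C646 in the 4 comparisons of each drug. With C646 the list had 0 or 1 genes lower and 1 higher in each comparison, with medians of -0.10 to 0.14. In these comparisons 1.21% to 2.75% of all genes were lower and 1.93% to 4.08% higher.

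The branch that leaves at farnesyl diphosphate for prenyl groups, dolichol and ubiquinone was a list of 12 genes. None of the 12 was 1.5-fold lower than DMSO with either drug in any line or time. In these 8 comparisons 0.343% to 5.23% of all genes were lower, so 0 of 12 is near the share of all genes. One, RABGGTB, a subunit of the enzyme that prenylates Rab proteins, was higher with ICG-001 in PANC1 at 96 h, at 0.73. There 3.93% of all genes were higher. GGPS1, which draws on farnesyl diphosphate to make geranylgeranyl diphosphate, was at -0.28 in HCT116 and -0.01 in PANC1 with ICG-001 at 96 h. With ICG-001 the median of this list in HCT116 was 0.06 at 12 h and 0.02 at 96 h, and in PANC1 it was -0.12 and -0.08.

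The regulators of the pathway were a list of 10 genes, of which 10 entered in HCT116 and 8 in PANC1. With ICG-001 in HCT116 1 was at least 1.5-fold lower at 12 h and 3 at 96 h, beside 4.25% and 5.23% of all genes, and 0 were higher, beside 4.93% and 5.25%. In PANC1 0 were lower and 1 (SCAP) higher at 12 h, beside 0.343% and 2.23% of all genes, and 2 were lower and 0 higher at 96 h, beside 3.63% and 3.93%. INSIG1, itself a known SREBP target, was at -1.43 and -2.50 in HCT116 and at -0.35 and -1.61 in PANC1. SREBF2, which encodes SREBP-2, read 176 and 178 with DMSO in HCT116, 172 and 168 under ICG-001, and in PANC1 144 and 165 with DMSO, 170.4 and 179 under ICG-001. These signals lay close to the detection limit, where background compresses ratios, so a change in SREBF2 RNA was not measurable here. SREBF1 was at 0.01 and -0.14 in HCT116 and at 0.09 and -0.50 in PANC1. SCAP, the escort of SREBP-2, was at 0.52 and 0.58 in HCT116 and at 0.79 and 0.22 in PANC1, and with C646 at 0.64 and 0.62 in HCT116 and 1.22 and 0.46 in PANC1. INSIG2 was at 0.40 and -0.59 in HCT116 and at -0.11 and -0.09 in PANC1. Some of these genes also moved between the DMSO columns. From 12 to 96 h INSIG1 was at 0.66 and INSIG2 at 0.80 in HCT116, and SCAP at 0.85 in PANC1. Their ratios therefore depend on the DMSO column used. In PANC1 SCAP read 595 and 1074 with DMSO at 12 and 96 h, and 1026 with ICG-001 at 12 h. The arrays read RNA, and cleavage of SREBP-2 was not measured.

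**Figure D5:**
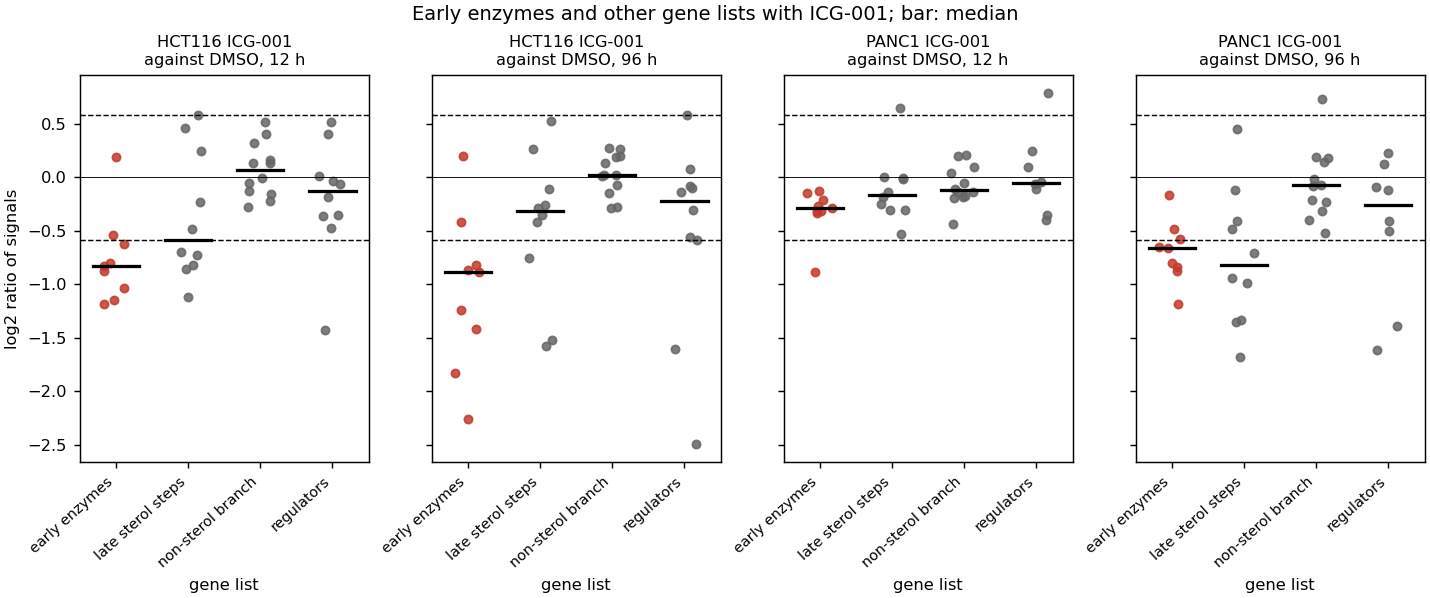
Log2 ratio of ICG-001 to DMSO for the 9 early enzymes (red) and for the genes of 3 other lists (grey) in each line and time; each point is 1 gene, black bars are medians and dashed lines are 1.5-fold. At 96 h the early enzymes have medians of -0.89 in HCT116 and -0.66 in PANC1, while the non-sterol branch lies at 0.02 and -0.08.

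To describe how the 9 genes varied together, log2 signals were centred within each line and each gene was set against the mean of the other 8 over the 12 columns. Pearson's r was 0.98 for IDI1, 0.97 for MVD and FDFT1, 0.94 for HMGCS1 and 0.92 for SQLE. It was 0.87 for FDPS, 0.86 for MVK and 0.81 for LSS, and -0.01 for PMVK. The columns share the normalization of their line and the genes share columns, so these values carry no p. The comparison took in 1899 genes above the limit in all 12 columns and with an SD of at least 0.3, some of the enzymes among them. Apart from the enzymes, the 5 most like the mean of the enzymes were ACAT2 (r = 0.96), INSIG1 (0.96), DBI (0.96), LOC729708 (0.95) and LOC728026 (0.94). The names depend on the coefficient, since only 1 of these 5 stayed among the top 5 by Spearman's rho. ACAT2 is the cytosolic thiolase that supplies acetoacetyl-CoA to HMGCS1, and its signal was 2.38-fold lower with ICG-001 in HCT116 at 12 h, 2.60-fold lower at 96 h, and 1.18-fold and 2.18-fold lower in PANC1. DBI, the acyl-CoA binding protein, had log2 ratios of -0.82 and -0.92 in HCT116 and of -0.35 and -0.39 in PANC1. The RefSeq names of the last pair are pseudogenes, TPI1P1 and PTMAP12, whose probes may also read their parent genes.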

How the data were processed

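RNA from 12 groups was hybridized to Illumina HumanHT-12 v4 arrays. Deposited values were linear signal intensity, exported by the authors from GenomeStudio (version not given in the sources used here) with quantile normalization and no background subtraction, and averaged over 2 or 3 arrays a group. The columns of each line appeared to have been normalized apart, since sorted log2 values differed on average by 0.0037 to 0.0093 within a line and 0.063 to 0.066 between lines, so levels were compared within a line only. Log2 intensities of a pair of columns were subtracted. There were no replicate values, hence no test, SD or p-value. The number of arrays limits the precision. The members and gene lists were chosen with earlier results of these data known. All 9 enzymes, the genes of the lists, and the 5 genes most like the enzymes could be named, and a few were left out of the text. The alternatives tried were thresholds of 1.2-fold and 2-fold, all genes without a filter, a limit at 5 SD, normexp with an offset of 16 (limma 3.58.1, R 4.3.3) and quantile normalization within a line, centring on the median, quantile normalization over all columns, and the DMSO column of the other time. The calculation was tested on simulated data, with 2-fold changes in genes well above the detection limit. That did not cover changes of 1.5-fold or dim genes such as MVK, PMVK, MVD and LSS. Scripts ran in Python 3.11.15 (pandas 2.3.3, numpy 2.4.6, scipy 1.17.1, matplotlib 3.10.9).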

Additional observations from a re-analysis of the deposited data

Results flagged for a closer look

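PMVK was higher than DMSO in all 4 drug columns of HCT116 and lower in all 4 of PANC1. Its mean log2 ratio to DMSO was 0.35 higher in HCT116 than in PANC1. Drug columns of the same line and time share a DMSO column, and this difference was not tested.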

How the results depend on the processing

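No paired analysis was possible because each group has 1 column, the mean of its replicates. Background correction by normexp moved 69 of 126 log2 ratios of the enzymes by more than the background scatter, reversed 0, and kept all 40 calls at 1.5-fold while making 56. With ICG-001 in HCT116 MVK moved from -0.63 to -1.29 and LSS from -0.88 to -1.57 at 12 h, and at 96 h LSS moved from -0.89 to -1.49 and IDI1 from -2.26 to -2.71. Counts of enzymes past 1.5-fold became 1 and 2 for C646 in HCT116 at 12 and 96 h, in PANC1 at 12 h 2 for ICG-001 and 4 for C646, and 8 for ICG-001 against C646 in PANC1 at 96 h. At 2-fold, ICG-001 against DMSO kept 3 and 4 enzymes in HCT116 and 0 and 1 in PANC1 at 12 and 96 h, C646 kept 0 in HCT116 at 96 h and 0 in PANC1 at 12 h, and ICG-001 against C646 kept 3 in HCT116 and 1 in PANC1 at 96 h. At 1.2-fold, which 15.5% to 34.7% of all genes passed, C646 in HCT116 had 3 enzymes at 12 h (1 lower, 2 higher) and 7 at 96 h (5 lower, 2 higher), and in PANC1 at 12 h 5, all lower. ICG-001 had 6 lower in PANC1 at 12 h, ICG-001 against C646 in PANC1 2 (1 each way) at 12 h and 8 lower at 96 h, and DMSO over time 1 higher in HCT116 and 2 higher in PANC1. With the DMSO column of the other time, 17 of 23 calls were kept and 22 were made. Lost in HCT116 were MVK with ICG-001 at 12 h and LSS with C646 at 96 h. Lost in PANC1 were IDI1 with C646 at 12 h and HMGCS1, FDFT1 and LSS with ICG-001 at 96 h. Gained in HCT116 were FDPS at 12 h and MVK at 96 h with ICG-001, and LSS with C646 at 12 h. Gained in PANC1 were HMGCS1 at 12 h and MVK at 96 h, both with ICG-001. The counts were 1 and 0 for C646 in HCT116, and in PANC1 at 12 h 2 with ICG-001 and 0 with C646. Without a filter and with the limit at 5 SD the counts of enzymes stayed within 1.5 times, and centring or quantile normalization over all columns moved 0 of 126 ratios beyond that scatter and kept all 40 calls. Ranked by Spearman's rho, 1 of the 5 genes most like the enzymes was shared. Shares of all genes were counted at 1.5-fold and 1.2-fold on the deposited values, so counts under the other settings have no share beside them. The causes were not tested. Arrays averaged before deposit leave no replicate error, and signal near background limits MVK in particular.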
